A study of Solanum tuberosum with 136 samples.

Results

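Tuber flesh kept in air was compared between week 15 and week 12 of storage, 4 libraries at week 15 against 4 libraries at week 12, which are 8 of the 68 flesh libraries of a series with as many libraries of bud. They were chosen by their titles, which give the tissue, the number read here as the week, the control treatment and the replicate. All came from the potato cultivar Russet Burbank and from tubers that never received ethylene. The series sampled primary bud and flesh in 34 groups of 4 RNA sequencing libraries, to ask how ethylene acts on dormancy of stored tubers. Control tubers were sampled at weeks 0, 3, 6, 9, 12, 15, 16, 17 and 18, and tubers under 10 ppm ethylene at weeks 3, 6, 9, 12 and 15. Tubers taken out of ethylene after week 15 were sampled in air at weeks 16, 17 and 18. The other groups compared here are control flesh of the remaining weeks and control bud at weeks 0, 12 and 15. Flesh under ethylene at weeks 3, 6, 9, 12 and 15 was compared as well. The remaining groups, among them those taken out of ethylene, entered only the shared fits. Nothing in the labels says that the replicates of a group were separate tubers, and p-values therefore only measure how far these libraries spread, which may be technical.

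The flesh of a potato tuber is mostly parenchyma that stores starch and storage proteins. The buds of a freshly harvested tuber are dormant and do not grow even in conditions that favour growth. When dormancy ends and a sprout forms, the flesh becomes the source of the sugars and amino acids that feed it, and ethylene is a gaseous plant hormone used in stores to restrain sprouting. The deposited tables do not pair their gene IDs with gene names or products, and none of the IDs matched the table of potato gene names at hand, so genes are given by ID, with no role and no sequence.

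Library totals were 27.3 to 32.8 M counts at week 15 and 30.5 to 50 M at week 12, within the 16.6 to 50.9 M of the whole series. Between 18737 and 19448 genes had counts in a library of week 15, and between 18787 and 19324 in a library of week 12. Correlations of log2 levels across genes were 0.938 to 0.946 within week 15, 0.943 to 0.9495 within week 12 and 0.923 to 0.939 between the weeks. The first principal component of the 8 libraries held 25.1% of the variance and separated the weeks, with scores of 39.4 to 72.9 at week 15 and -67.3 to -51.4 at week 12. The second held 14.2% and set replicate 3 of week 15 apart, at -102.56. The tissue label was checked with 366 genes that were at least 16-fold higher in bud than in flesh at week 0, a comparison in which 48.2% of the genes tested differed. Their summed level was 228 to 266 CPM in flesh of week 15 and 332 to 352 CPM in flesh of week 12, against 4985 to 6525 CPM in bud of week 15 and 7735 to 8766 CPM in bud of week 12. CPM are counts relative to the library total after scaling between libraries, with no correction for gene length. Of the 366 genes, 182 had no counts in any flesh library of week 15 and 162 in none of week 12. The sum was lower at week 15 than at week 12 in both tissues, and its part in the results was not tested. The 9 genes that were high in flesh at week 0 summed to 71.9 to 90.7 CPM at week 15 and 52.5 to 88.8 CPM at week 12.

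Flesh in air changed broadly between week 12 and week 15. Of 21718 genes tested, 1656 were higher and 2460 lower at week 15, which is 7.63% and 11.3% of the genes and 19% in either direction (edgeR's quasi-likelihood test, Benjamini-Hochberg adjusted p under 0.05). Most of these differences were small. The median log2 difference was 0.53 among the genes called higher and -0.56 among those called lower, beside -0.01 over all genes tested. At least 2-fold differences were found for 240 genes higher and 514 lower, and at least 4-fold differences for 82 higher and 239 lower. Without replicate 3 of week 15, 1425 genes were higher and 1880 lower. With DESeq2 size factors 1931 were higher and 2195 lower, so the balance of directions depends on the scaling. In 1176 of the 1656 higher genes and 1851 of the 2460 lower genes, the 4 libraries of week 15 did not overlap with the 4 of week 12. Over all genes 7.91% lay wholly above and 10.5% wholly below. In bulk tissue, fewer cells of a type and less RNA per cell cannot be told apart.

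**Figure D1:**
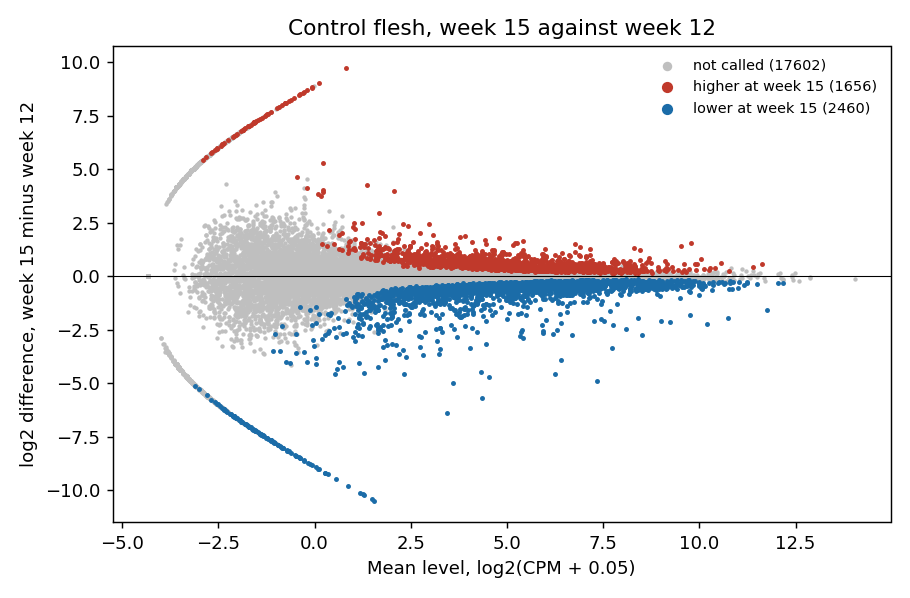
Log2 difference of each tested gene, week 15 minus week 12 of control flesh, against the log2 of its mean CPM over both weeks plus 0.05. Red points are the 1656 genes called higher at week 15 and blue points the 2460 called lower, and the curved lines of points at the upper and lower left are genes without counts in one of the weeks, whose fitted difference depends on the prior count.

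The plot of difference against level shows calls at every level, with the larger differences at low levels. Of 5104 genes under 1 CPM on average over the 8 libraries, 1.18% were higher and 2.43% lower at week 15. Of 1835 genes at 100 CPM or more, 295 were higher and 575 lower, or 16.1% and 31.3%, but only 8 and 26 of these differed at least 2-fold. The share of calls therefore rose with the level while the share of 2-fold differences did not. For the genes between 1 and 10 CPM the calls were 331 higher and 506 lower of 7051, and between 10 and 100 CPM they were 970 higher and 1255 lower of 7728.

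The changed genes made up a sizeable part of the RNA. Genes called higher took 13.6%, 13.9%, 14.9% and 15.3% of the counts in the libraries of week 15, against 10.1%, 9.49%, 10.2% and 10.001% in those of week 12. Genes called lower took 23.5%, 23.01%, 22.01% and 21.4% in the libraries of week 15, against 29.998%, 30.2%, 29.4% and 29.4% in those of week 12. The genes were chosen on these libraries, so the shares describe the size of the change and carry no test. Libraries of other weeks shared the fit but were not among those compared. In them the genes called higher held 16.6%, 16.3%, 15.3% and 16.5% of the counts at week 17. The same share was between 11.03% and 11.3% at week 9. It was 13.8% to 15.1% at week 16 and 12.5% to 13.6% at week 18. The genes called lower held 28.3% to 28.99% at week 9, 21.5% to 23.2% at week 16, 19.2% to 20.98% at week 17 and 22.8% to 24.3% at week 18. The 100 genes with the highest level in control flesh at week 0 took 22.05% to 23.02% at week 15 and 23.1% to 23.9% at week 12.

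The control flesh genes with the largest differences were picked by a rule: past the threshold, at least 5 CPM on average in one of the weeks, and no overlap between the libraries of the weeks. Soltu.DM.01G000570 had the largest fold among the higher genes. It was at 6.93, 8.35, 6.13 and 9.96 CPM at week 15, against 0.252, 0, 0.925 and 0.729 CPM at week 12. All 4 libraries of week 15 thus lay above all 4 of week 12, one of which had no counts. The means were 7.84 ± 1.68 CPM at week 15 and 0.476 ± 0.425 CPM at week 12 (SD, n = 4 each), a log2 difference of 3.996 (SE 0.60, edgeR adjusted p = 7.42e-07). At earlier control weeks its mean stayed at or under 0.619 CPM, and at weeks 16, 17 and 18 it was 12.7, 8.52 and 13 CPM. The gene was thus at a low level or without counts in control flesh up to week 12, and higher from week 15 on.

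Soltu.DM.12G004810 had the largest gain in CPM. It was at 2980, 4050, 4080 and 4110 CPM at week 15, against 2800, 2480, 2480 and 2440 CPM at week 12. The groups did not overlap, but replicate 1 of week 15 lay near the highest library of week 12. The log2 difference was 0.58 (SE 0.10, edgeR adjusted p = 8.12e-06), or 1.49-fold. Its means over the control weeks moved both ways, with 1890, 2010, 2400, 3650, 2550, 3800, 4590, 4830 and 3810 CPM over the 9 samplings from week 0 to week 18. The level at week 15 was therefore close to the level already seen at week 9.

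Soltu.DM.06G017220 had the largest fold among the lower genes. It had no counts in any of the 4 libraries of week 15, against 4.16, 7.81, 4.95 and 5.13 CPM at week 12 (830 counts in all). With a floor of 3 counts over the group of week 15, its mean was at least 226-fold lower (edgeR adjusted p = 4.64e-12). This bound leaves out the spread between libraries. Soltu.DM.06G017220 also had no counts in the 12 control flesh libraries of weeks 16, 17 and 18. Its earlier means were 6.52, 19.2, 15.6 and 3.15 CPM from week 0 to week 9. It was thus detected in every control flesh group up to week 12 and in none from week 15 on.

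Soltu.DM.01G020840 had the largest loss in CPM. It was at 1720, 1910, 1770 and 1520 CPM at week 15, against 5270, 5870, 4880 and 4720 CPM at week 12. Every library of week 15 lay far below every library of week 12, and the 3.00-fold lower level corresponded to a log2 difference of -1.58 (SE 0.12, edgeR adjusted p = 1.24e-16). From week 3 to week 12 its control means were 4700, 3900, 4290 and 5190 CPM, and at weeks 16, 17 and 18 they were 1140, 674 and 1220 CPM. The week 15 level was also near that of week 0, when the mean was 1970 CPM.

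**Figure D2:**
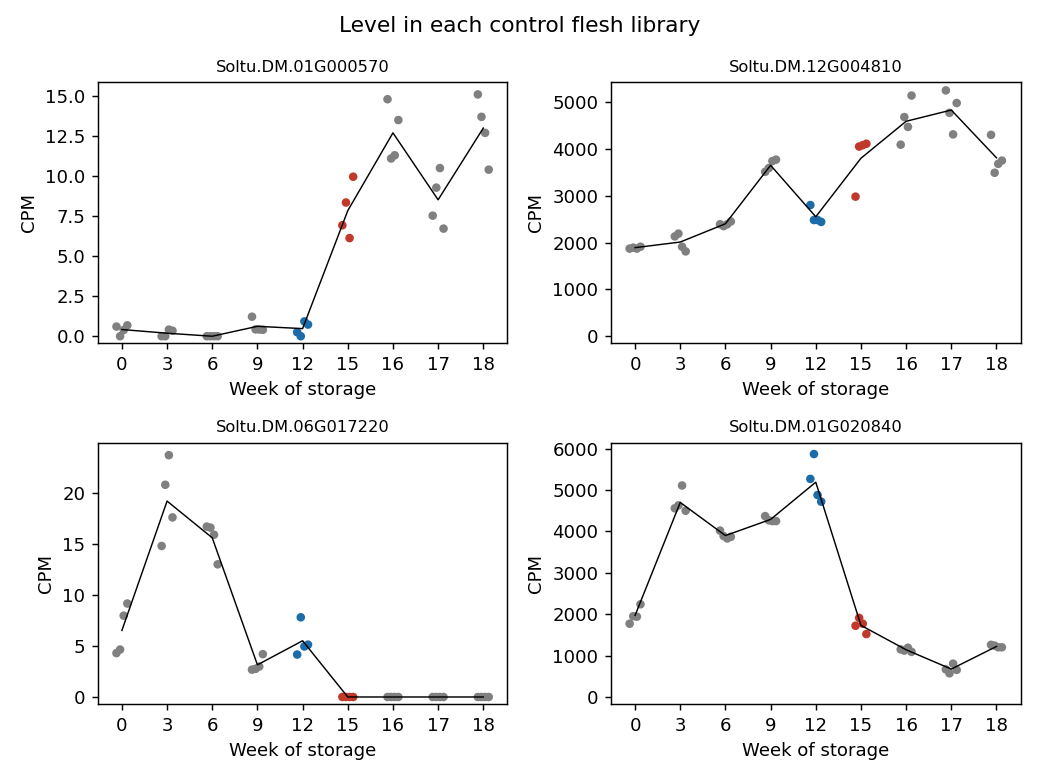
Level in CPM of the 4 genes with the largest differences in each control flesh library, by week of storage; red points are week 15, blue points week 12, grey points other weeks, and the line joins the group means. Soltu.DM.01G000570 and Soltu.DM.12G004810 were higher at week 15, Soltu.DM.06G017220 and Soltu.DM.01G020840 lower.

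Some genes were detected at one of the weeks and not at the other. With no counts in any library of week 12 and counts in all 4 of week 15 at a mean of at least 1 CPM, 12 genes appeared, at means of 1.02 to 3.43 CPM at week 15. The reverse pattern was found for 27 genes, at means of 1.02 to 5.51 CPM at week 12. All 39 passed the threshold, which the choice makes likely. Of the 12 genes that appeared, 2 had no counts in any control flesh library of weeks 0 to 9, and 4 had counts in all control flesh libraries of weeks 16 to 18. Of the 27 that were lost, 10 had counts in all control flesh libraries of weeks 0 to 9, and 7 had none in any of weeks 16 to 18. Under ethylene at week 15, 12 of the 27 were present in all 4 flesh libraries and 1 was absent from all, and in control bud at week 15 the numbers were 19 and 3. Of the 12 that appeared, 3 had counts in all 4 ethylene flesh libraries of week 15 and 2 had none in any. In control bud of week 12, 4 of the 12 had counts in all 4 libraries. For scale, 22204 to 22730 of 32878 genes had counts in a control bud library of week 15. The share over all genes was not computed for any of these patterns, so the counts are a description.

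Fewer genes changed in the intervals next to it. The calls of each control flesh sampling against the one before were 2110 higher and 1845 lower at week 3 (18.2% of the genes), 313 and 436 at week 6 (3.45%), and 1729 and 1410 at week 9 (14.5%). At week 12 against week 9 they were only 250 and 240 (2.26%), before the 1656 and 2460 of week 15 against week 12. Week 16 against week 15 gave 1035 and 741 calls (8.18%), week 17 against week 16 gave 2365 and 2344 (21.7%), and week 18 against week 17 gave 3547 and 3381 (31.9%). These later steps are of 1 week each, whereas the earlier ones span 3 weeks, and consecutive comparisons share a group of libraries. Week 18 against week 16, not a consecutive step, gave only 818 and 655 calls, fewer than either step through week 17. The difference between these counts was not tested.

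The libraries of week 15 stood much nearer to the end of storage than those of week 12. A storage position was computed for each flesh library from 1344 genes that differed at least 2-fold between control flesh of weeks 0 and 18, on a scale where the mean of week 0 is 0 and that of week 18 is 1. It was 0.863 ± 0.0145 at week 15 (0.843 to 0.878) and 0.537 ± 0.0157 at week 12 (0.518 to 0.556; SD, n = 4 each). The difference of 0.325 had an exact two-sided permutation p of 0.0286, the smallest that 4 against 4 libraries can give. In time order the control means between week 0 and week 18 were 0.173, 0.265, 0.502, 0.537, 0.863, 0.945 and 0.928. The step to week 15 was thus the largest between consecutive control samplings. In flesh under ethylene the position was 0.737 ± 0.0407 at week 15 and 0.455 ± 0.0185 at week 12.

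**Figure D3:**
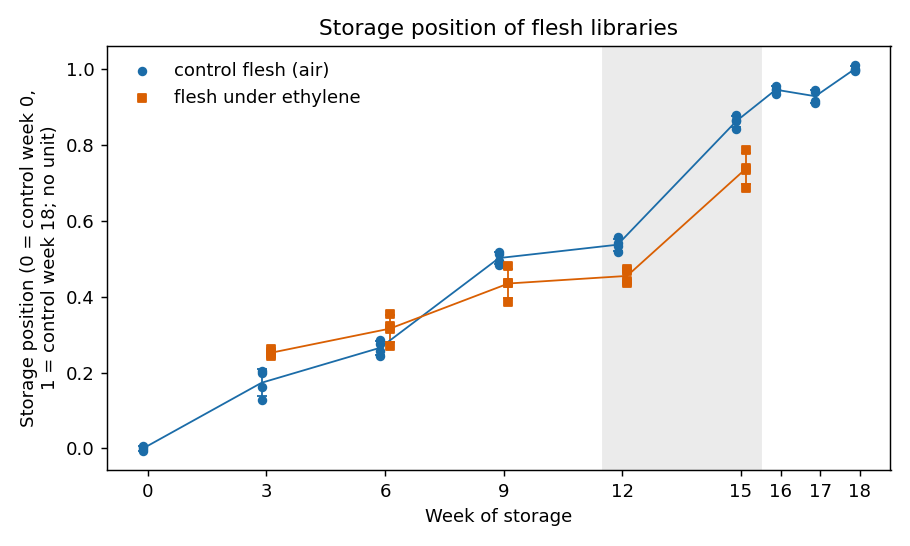
Storage position of each flesh library (no unit; 0 is the mean of control flesh at week 0 and 1 that of week 18) by week of storage, with circles for control flesh in air and squares for flesh under ethylene, lines through the group means and bars of 1 SD. In the shaded interval the control libraries lie at 0.843 to 0.878 at week 15 and at 0.518 to 0.556 at week 12.

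Gene lists drawn from other libraries were followed through the interval. At week 18 against week 0 of control flesh 35.8% of the genes differed, and 1242 genes had risen by 2-fold or more. Between the weeks compared here, 327 of them were higher and 35 lower at week 15, that is 26.3% and 2.82% beside 7.63% and 11.3% of all genes, and 880 did not pass. Of 1278 genes that fell at least 2-fold by week 18, 17 were higher and 469 lower (1.33% and 36.7%), with 792 that did not pass. The median log2 differences were 0.34 for the first list and -0.61 for the second, beside -0.01 for all genes. Among the genes named above, Soltu.DM.01G000570 was at 13 CPM at week 18 and 0.418 CPM at week 0, and Soltu.DM.06G017220 had no counts at week 18 and 6.52 CPM at week 0. The 100 genes with the highest level in control flesh at week 0 gave 4 calls higher and 38 lower, with a median of -0.145. The calls higher numbered 7 with only the groups compared, 11 with the replicate block as well, 10 with a stricter filter and 9 with DESeq2's test. Calls were more frequent at high levels, with 16.1% higher and 31.3% lower among all tested genes at 100 CPM or more.

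Genes that ethylene had altered in flesh earlier in storage were described in the same way, on control libraries alone. Averaged over weeks 3, 6 and 9, 6.31% of the genes differed between ethylene and control flesh. Of 599 genes that were higher under ethylene than in control flesh, 19.9% were higher and 21.2% lower at week 15 in air, and the median was -0.02. Of 771 genes that were lower under ethylene, 66 were higher and 288 lower, 8.56% and 37.4%, with a median of -0.17. Both lists held calls in both directions above the shares over all genes, other than the calls higher among the ethylene-lowered genes, which were near it. Genes high in bud gave 3 calls higher and 24 lower of 273 tested, 1.1% and 8.79%, and the other members of the 366 did not pass the filter on low counts. The 9 flesh-high genes gave 3 higher and 1 lower.

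**Figure D4:**
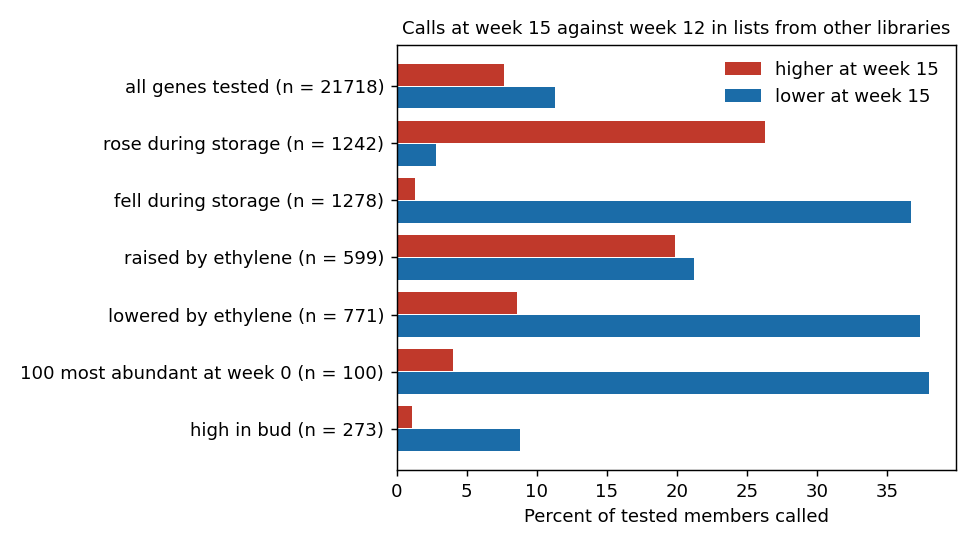
Percent of the tested members of each list called higher (red) and lower (blue) at week 15 against week 12 of control flesh, beside all 21718 genes tested. Genes that rose during storage have 26.3% higher and 2.82% lower, and genes that fell have 1.33% higher and 36.7% lower.

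Part of the change was also found between control flesh libraries outside weeks 12 and 15. Of the 1656 genes called higher, week 16 against week 9 had 684 higher (41.3%) and 32 lower, where 8.73% of all genes were higher. At week 17 against week 9, 1039 (62.7%) were higher and 25 lower, beside 12.7% of all genes. At week 18 against week 9 the share was 33.9% beside 12.2%, and 242 of the genes were lower. The libraries of week 9 are common to these 3 comparisons, which therefore stand side by side. Week 17 differed from weeks 16 and 18 in more genes than those weeks differed from each other.

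The genes called lower were followed in the same libraries. Of these 2460, week 16 against week 9 had 1126 lower (45.8%) and 41 higher, beside 10.4% of all genes lower. At week 17 against week 9, 1624 (66%, beside 14.1% of all genes) were lower and 9 higher. The comparison of week 18 with week 9 had 882 of them lower (35.9%, beside 14.3% of all genes) and 250 higher. Within the last weeks part of the change went the other way. At week 18 against week 16, 204 of the genes called higher were lower (12.3%, beside 3.02% of all genes) and 29 were higher. Of the genes called lower, 379 were then higher (15.4%, beside 3.77% of all genes) and 55 were lower. The 684 shared genes are 36.1% of the genes higher at week 16 than at week 9, and the 1126 are 50.1% of those lower.

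The larger differences were followed to the end of storage. Of the 240 genes at least 2-fold higher at week 15, 47.9% were higher at week 18 against week 9, beside 12.2% of all genes. Of these 240, 10 were lower (4.17%, beside 14.3% of all genes). Of the 514 genes lower by at least 2-fold, 301 were also lower (58.6%, beside 14.3% of all genes) and 8 higher (1.56%, beside 12.2%). Soltu.DM.01G000570 was at 13 CPM at week 18 and 0.619 CPM at week 9, and Soltu.DM.01G020840 at 1220 CPM at week 18 and 4290 CPM at week 9. Before the interval, at week 9 against week 0, 702 of the genes called higher were already higher (42.4%, beside 16.2% of all genes) and 987 of those called lower were already lower (40.1%, beside 14.4%). In the opposite direction, 155 of the genes called higher were lower by then (9.36%, beside 14.4% of all genes). Of those called lower, 412 were higher (16.7%, beside 16.2% of all genes). Part of the genes had thus already moved in the same direction by week 9. The shares that had moved in the opposite direction were near or under those of all genes.

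Flesh under ethylene went through the same 3 weeks with a change of its own. At week 15 against week 12, 1899 genes were higher and 1689 lower under ethylene (8.74% and 7.78% of the genes). With only the groups compared in the fit, 2313 genes were called, 1183 of them higher, so the counts depend on the libraries in the fit. Of the genes called higher in control flesh, 551 were higher and 98 lower under ethylene, and of those called lower in control flesh, 560 were lower and 78 higher. The shared genes are 33.3% of the control genes called higher and 29% of the ethylene genes called higher, and 22.8% of the control genes called lower and 33.2% of the ethylene genes called lower. No library is common to these comparisons.

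The difference between the change in air and the change under ethylene was tested for each gene. It passed for 2941 genes, 13.5% of those tested, with the control change more positive in 1152 (5.3%) and more negative in 1789 (8.24%). Fitted on the 16 libraries of these 4 groups alone, the test called 1594 genes, 725 and 869, so the number depends on the libraries in the fit. With DESeq2 size factors 1351 were more positive and 1487 more negative, so the balance of directions depends on the scaling. Among the genes called lower in control flesh, 1008 (41%) had a more negative change in control than under ethylene, and among those called higher 517 (31.2%) had a more positive one. These genes were chosen on one of the changes compared, which favours such a direction, so the counts are a description.

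**Figure D5:**
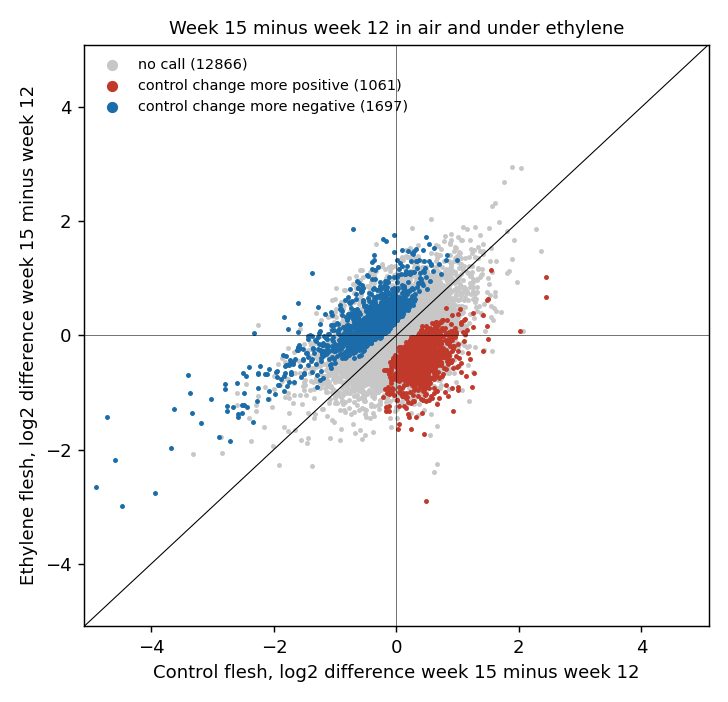
Log2 difference of week 15 minus week 12 in control flesh (horizontal) and in flesh under ethylene (vertical) for 15624 genes with a mean of at least 1 CPM in all 4 groups. Red points are 1061 genes with a more positive change in control flesh and blue points 1697 with a more negative one, and the diagonal marks equal changes.

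Among the named genes, Soltu.DM.01G020840 showed the contrast between air and ethylene most plainly. Under ethylene it was at 3980, 4070, 4160 and 4510 CPM at week 15, against 5230, 4920, 4780 and 3910 CPM at week 12, so the ethylene groups overlapped (log2 -0.17, edgeR adjusted p = 0.333). The change in control flesh was lower by 1.41 on the log2 scale (control minus ethylene -1.41, SE 0.16, edgeR adjusted p = 1.03e-08). At week 15 all 4 control libraries, at 1520 to 1910 CPM, lay below all 4 ethylene libraries.

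Soltu.DM.06G017220, without counts in control flesh at week 15, was still detected under ethylene, at 2.52, 6.71, 2.23 and 1.85 CPM at week 15 against 15.4, 12.5, 11.9 and 11.7 CPM at week 12. It was lower at week 15 in both conditions, and the changes differed (edgeR adjusted p = 1.58e-05). No size is read from that difference, since its fitted value depends on the prior count. Soltu.DM.01G000570 was higher at week 15 under ethylene too, at 3.76 ± 2.18 CPM against 0.515 ± 0.432 CPM at week 12 (SD, n = 4 each; log2 2.86, edgeR adjusted p = 0.000355), and the control change was not shown to differ from it (log2 1.14, SE 0.85, adjusted p = 0.428). Soltu.DM.12G004810 was at 4290 ± 200 CPM at week 15 and 2450 ± 397 CPM at week 12 under ethylene, a log2 difference of 0.81 where control flesh had 0.58 (control minus ethylene -0.23, SE 0.14, adjusted p = 0.290).

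Another pair of genes had the most negative and the most positive difference among those past the threshold with at least 5 CPM in one of the 4 groups and counts in every group, which leaves out Soltu.DM.06G017220. Soltu.DM.11G011790 was at 2.38, 1.88, 0.905 and 1.52 CPM in control flesh of week 15, against 51.1, 42.5, 38.9 and 46.1 CPM at week 12. Under ethylene it was at 12.5, 10.4, 20.8 and 23.4 CPM at week 15, against 28.9, 45.8, 61.4 and 44.6 CPM at week 12. It was lower at week 15 in every library of both conditions, and the control change was more negative by a log2 value of -3.30 (SE 0.46, edgeR adjusted p = 1.05e-06). It stayed between 2.03 and 3.16 CPM on average in control flesh of weeks 16 to 18.

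Soltu.DM.01G010340 had the most positive difference among these genes, 3.38 (SE 1.19, edgeR adjusted p = 0.0481), and its libraries scattered widely. It was at 1.85, 1.26, 4.02 and 1.77 CPM in control flesh of week 15, against 0.328, 0.174, 0.452 and 5.6 CPM at week 12. Under ethylene it was at 2.34, 0.998, 0.520 and 0.217 CPM at week 15, against 1.98, 9.99, 13.3 and 4.27 CPM at week 12. The groups overlapped in both conditions, and the adjusted p was up to 0.118 when a single library was left out, with the call lost for 12 of the 16 libraries. It was kept without replicate 2 of control week 15, replicate 4 of control week 12, or replicate 1 of either ethylene group.

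Control bud of the same weeks shared part of the change. There 2342 genes were higher and 2578 lower at week 15 (9.63% and 10.6% of 24328 tested). Of the genes called higher in flesh, 452 were higher and 47 lower in bud, and of 2457 genes called lower in flesh that were tested in bud, 932 were lower and 110 higher. The shared genes are 27.3% of the flesh genes and 19.3% of the bud genes called higher, and 37.9% of the flesh genes and 36.2% of the bud genes called lower. The change differed between the tissues in 1619 of 24835 genes (6.52%), with the flesh change more positive in 810 (3.26%) and more negative in 809 (3.26%).

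Of the named genes, Soltu.DM.01G000570 was higher at week 15 in both tissues, with bud at 26 ± 8.41 CPM at week 15 and 9.44 ± 0.983 CPM at week 12 (SD, n = 4 each), and its flesh change was larger by 2.56 on the log2 scale (SE 0.55, edgeR adjusted p = 0.000883). Soltu.DM.01G020840 was lower at week 15 in both, with bud at 1050 ± 172 CPM at week 15 and 4620 ± 163 CPM at week 12, and here the bud fell further (flesh minus bud 0.58, SE 0.18, adjusted p = 0.0367). Soltu.DM.06G017220 was at 6.75 ± 2.60 CPM in bud of week 15 and 40 ± 5.04 CPM in bud of week 12. Soltu.DM.12G004810 did not pass in bud, at 7770 ± 580 CPM at week 15 and 6980 ± 515 CPM at week 12 (log2 0.16, adjusted p = 0.354), and the tissues differed by 0.46 (SE 0.14, adjusted p = 0.0288).

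The most positive and the most negative tissue difference were picked by the same limits, among genes with counts in every group. Both lay in genes that were near the limit of detection in flesh of weeks 12 and 15. Soltu.DM.07G006210 was at 1.56, 2.59, 0 and 2.06 CPM in flesh of week 15, against 0, 0.348, 0 and 0 CPM in flesh of week 12, and at 7.93 ± 0.629 CPM in bud of week 15, against 9.82 ± 0.870 CPM in bud of week 12. The flesh change was more positive by 4.55 on the log2 scale (SE 0.78, edgeR adjusted p = 2.12e-05), although replicate 3 of week 15 had no counts. Its size rests on replicate 2, the only library of flesh at week 12 with counts (12), without which the fitted value was 9.08. In control flesh it went on to 4.69, 5.69 and 12.2 CPM at weeks 16, 17 and 18. Soltu.DM.04G026390 was at 0, 0, 0.436 and 0 CPM in flesh of week 15, against 0.957, 3.46, 2.12 and 4.14 CPM in flesh of week 12, and at 71.1 ± 28.6 CPM in bud of week 15, against 54.6 ± 21.3 CPM in bud of week 12. Its flesh change was more negative, at -4.93 (SE 1.51, adjusted p = 0.0298). This size rests on replicate 3, the only library of flesh at week 15 with counts (13), without which the fitted value was -9.84. In control flesh of week 6 Soltu.DM.04G026390 was at 58.3 ± 12.9 CPM (SD, n = 4), so it was not near that limit in every week. The adjusted p of its tissue difference was up to 0.0766 when a single library was left out. The call was lost without replicate 1, 2 or 4 of flesh at week 15, replicate 2 or 4 of flesh at week 12, replicate 1 of bud at week 15 or replicate 2 of bud at week 12.

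Transcript usage, the share of a gene's counts given to each of its transcripts, gave few and unsteady calls. On simulated counts diffSpliceDGE made more wrong calls than its threshold allows, so the number of calls may be too high and the adjusted p-values too low. The test passed for 201 of 5263 genes with more than one tested transcript, or 3.82% (edgeR diffSpliceDGE, adjusted p under 0.05). At the gene level 53 of the 201 were called and 148 were not, where 19% of all genes tested were called. The share called at the gene level among the 5263 genes was not computed. The median of the largest change in share was 11.2 percentage points, and 62 genes had a change of at least 20 points. Leaving out any one of the 8 libraries brought the number of calls to between 5 and 86. Many of the calls lay just under the threshold, a large part of them tied at an adjusted p of 0.0474 (edgeR diffSpliceDGE). Such calls can be lost together, so the drop does not show how far they rest on each library. Of the 201 genes, 69 were also called by limma's diffSplice, a test chosen after the data were seen, which called 198. Counts of transcripts are estimates from reads that transcripts share.

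Several genes tied at the smallest adjusted p, and the first pair in order of unadjusted p is described. In Soltu.DM.06G010930 the second transcript held 58.3%, 0%, 0% and 54.1% of the counts at week 15, against 0% in all 4 libraries of week 12 (adjusted p = 0.0181). In Soltu.DM.12G014910 the first transcript held 0.534%, 0%, 2.28% and 22% at week 15, against 0% in all 4 libraries of week 12 (adjusted p = 0.0181). In both, at least 1 library of week 15 matched week 12, and at week 9 the shares were again 31.8% ± 20.2 and 0.919% ± 0.676 (SD, n = 4). Both calls were lost without replicate 2 of week 12 (adjusted p = 0.0564), and that of Soltu.DM.06G010930 also with limma's diffSplice (adjusted p = 0.0557). Neither gene passed the test on its total level (log2 0.22, adjusted p = 0.336, and -0.01, adjusted p = 0.959).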

How the data were processed

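Total RNA was sequenced, and the authors deposited a table of counts per gene and a table of counts per transcript, whole numbers with a different total in each library. Trimmomatic, HISAT2, SAMtools and StringTie are named in the submitters' processing notes, without versions. Genome build, annotation and the counting of reads shared by near-identical, overlapping or antisense genes were not given in the sources used here. Such genes are therefore uncertain. Of 32878 genes, 5374 had no counts. The table has 1 row without a gene ID, with 1.76% to 2.95% of the counts, that was left out. None of the IDs matched the gene name table at hand (0 matches), so lists by product name were not applied. Members and lists were chosen with earlier results of these data known.

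Tests used edgeR 4.0.16 under R 4.3.3 (filterByExpr with a minimum count of 10 and a minimum total of 15, TMM scaling, trended dispersion, quasi-likelihood F test, Benjamini-Hochberg threshold 0.05). The 68 flesh libraries were fitted together (51 residual degrees of freedom), the 68 bud libraries together, and both sets for flesh against bud. Standard errors come from the F statistic. CPM used TMM-scaled library totals. The storage position projects log2(CPM + 2) onto the difference between control flesh of weeks 18 and 0. Genes named are, per direction, the largest fold and the largest CPM difference among called genes with at least 5 CPM and separated libraries, and the extremes of each tested difference among genes with counts in every group. Alternatives used DESeq2 1.42.0, limma 3.58.1, other filters and scalings, fewer libraries, and a replicate block, with same-number correlations of 0.0083, 0.0070, 0.0079 and 0.00091. The steps were tested on simulated counts, where diffSpliceDGE made more wrong calls than its threshold allows.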

Additional observations from a re-analysis of the deposited data

Results flagged for a closer look

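Single libraries stood apart from the other 3 of their group in these values, where chance flags about 1 group in 20. Replicate 1 had 2800 CPM of Soltu.DM.12G004810 at week 12 and 2980 CPM at week 15 of control flesh. One library of ethylene flesh at week 15 had 6.71 CPM of Soltu.DM.06G017220, and one of control flesh at week 12 had 5.6 CPM of Soltu.DM.01G010340. Soltu.DM.07G006210 was found in 1 library of control flesh at week 12 (0.348 CPM) and 1 of ethylene flesh at week 15 (0.402 CPM). Soltu.DM.04G026390 was found in 1 library of control flesh at week 15 (0.436 CPM) and 1 of ethylene flesh at week 15 (1.04 CPM). A group with counts in only 1 library is always flagged, so the rate of 1 in 20 does not apply to these groups of either gene. Replicate 2 of control flesh at week 15 held 23.02% of its counts in the 100 genes most abundant at week 0, above the other 3 libraries.

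The change from week 12 to week 15 differed between conditions or tissues by a test of the difference itself (edgeR's quasi-likelihood test) in 2941 genes for control minus ethylene and 1619 for flesh minus bud. Control minus ethylene was -1.41 for Soltu.DM.01G020840, -3.30 for Soltu.DM.11G011790 and 3.38 for Soltu.DM.01G010340 on the log2 scale. Flesh minus bud was 2.56 for Soltu.DM.01G000570, 0.46 for Soltu.DM.12G004810, 0.58 for Soltu.DM.01G020840, 4.55 for Soltu.DM.07G006210 and -4.93 for Soltu.DM.04G026390, where the sizes of the last pair rest on the 1 library of a flesh group that had counts. For Soltu.DM.06G017220, which had no counts in control flesh at week 15, the fitted values of -8.51 (control minus ethylene) and -7.95 (flesh minus bud) depend on the prior count and are not sizes or bounds.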

How the results depend on the processing

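Of 652 values recomputed under alternatives, 600 kept their direction and their side of the threshold or stayed within 1.5 times the count. Among the log2 values of named genes and the storage position differences, 0 reversed. Counts and transcript usage were not judged for direction, so they could not reverse. Calls at week 15 against week 12 in control flesh numbered 3112 to 4649, and 3154 to 4061 with one library left out. DESeq2 size factors gave 1931 higher and 2195 lower (46.8% higher instead of 40.2%), a minimum mean of 5 CPM gave 2003 and 2193, and DESeq2's test 2197 and 2452, with 2107 genes given no adjusted p. Thinning to the lowest library total of 27.3 M, chosen after the data were seen, gave 1761 and 2285. With only the groups compared in the fit, calls of control minus ethylene were 1594 (725 more positive, 869 more negative), and calls of ethylene flesh were 2313 (1183 higher). With the replicate block as well, control minus ethylene gave 1497 (659 and 838), and control flesh gave 1435 higher and 1733 lower, against 1418 and 1694 without it. Replicate numbers were not taken to pair libraries, since all correlations of same-numbered libraries were under 0.1; 3 of the 4 week 15 libraries correlated best with their own number. Leaving out a library gave 2081 to 3199 calls for control minus ethylene, 1213 to 1616 for flesh minus bud, and 5 to 86 for transcript usage. Transcript usage gave 110 calls with a stricter filter and 18 with only the groups compared. The storage position difference was 0.300 with a pseudocount of 0.5, 0.358 with genes at least 4-fold apart, and 0.319 to 0.332 with a library left out. Calls lower among bud-high genes numbered 8 to 30. The cause of these shifts was not tested. Low counts limit genes under 1 CPM, and library number limits every p-value.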

Other observations

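The genes called at week 15 against week 12 of control flesh were spread over all 12 chromosomes named in the IDs. The share of tested genes called was lowest on chromosome 4, at 17.3%, and highest on chromosome 6, at 20.3%, beside 19% over all genes. On chromosome 6, 36.7% of the calls were higher, and on chromosome 11, 42.5%.

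Some called genes were neighbours among the tested genes in ID order. How many such runs the shares of 7.63% higher and 11.3% lower would bring was not computed. The longest run of higher genes had 9 members, on chromosome 1, with log2 differences of 0.54 to 1.27. None of the 9 was called higher in control bud or in ethylene flesh over the same weeks, and 4 were higher at week 16 than at week 9 in control flesh. Of all genes called higher, 27.3%, 33.3% and 41.3% were called higher in these comparisons. The longest run of lower genes had 11 members, on chromosome 8, with log2 differences of -2.51 to -0.83 and mean levels of 12.8 to 700.0 CPM at week 15 and 35.2 to 2750 CPM at week 12. Of these 11, 5 were lower in control bud, 5 in ethylene flesh and 9 at week 16 against week 9, where the shares of all genes called lower were 37.9%, 22.8% and 45.8%. Neighbouring near-identical copies can share reads, so members of a run may not be independent measurements.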
